A study of Mus musculus with 18 samples.

Results

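The albumin gene family of the mouse was followed as 4 genes, Alb (serum albumin), Afp (alpha-fetoprotein), Afm (afamin) and Gc (the vitamin D-binding protein), out of 23904 gene names present in the deposited tables. The members were matched by gene name in the transcript tables of 3 tissues, and the FPKM values (fragments per kilobase of transcript and 1000000 mapped fragments) of all models of a gene were summed in each column. All 4 members were found in each tissue.

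The RNA came from liver, gonadal adipose and hypothalamus of male C57BL/6 mice aged 3 weeks. Per the labels, 3 samples of each tissue came from offspring of dams given bisphenol A, an estrogenic plastics chemical, at 5 mg/kg/day in corn oil by gavage from day 1 to day 20 after conception, and 3 from offspring of dams given corn oil. Bisphenol A offspring came from 4 litters and vehicle offspring from 3, so some samples may share a dam. The study asked what this prenatal exposure does to each tissue. Each of the 6 columns of a tissue is headed by the tissue and a number that stands in no sample label, so no column could be given a treatment. Tissues were compared instead, and every spread within a tissue includes both treatments as well as litters.

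Albumin is the principal protein of plasma, secreted by hepatocytes, and carries fatty acids, bilirubin and hormones. Alpha-fetoprotein is its fetal counterpart, made in yolk sac and fetal liver, and its gene is shut down in liver after birth; in rodents the protein binds estradiol. Afamin carries vitamin E, and the vitamin D-binding protein carries vitamin D metabolites and scavenges actin. The genes arose by duplication and lie together on mouse chromosome 5.

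By RefSeq positions on GRCm38, Gc lies at chr5:89417511-89457898 on the minus strand and has 13 exons. Alb lies at chr5:90460870-90476602, Afp at chr5:90490714-90508907 and Afm at chr5:90518949-90553544, all on the plus strand and with 15 exons each. The gap between Gc and Alb is 1002971 bp, against 14111 bp between Alb and Afp and 10041 bp between Afp and Afm. Another gene of the cluster, Albfm1, which is not a member here, follows Afm after 7081 bp and is named 5830473C10Rik in the tables. It was listed at 9.35 to 16.5 FPKM in liver and at 0 in every adipose and hypothalamus column.

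The 250 bases before each RefSeq start are shown because all members share a short motif there. They are taken from RefSeq, build GRCm38.p6, read 5′ to 3′ on the strand of the gene, at chr5:90460620-90460869 for Alb, chr5:90490464-90490713 for Afp, chr5:90518699-90518948 for Afm and chr5:89457899-89458148 for Gc (minus strand). Capitals mark the match to GTTAATNAT.
Alb: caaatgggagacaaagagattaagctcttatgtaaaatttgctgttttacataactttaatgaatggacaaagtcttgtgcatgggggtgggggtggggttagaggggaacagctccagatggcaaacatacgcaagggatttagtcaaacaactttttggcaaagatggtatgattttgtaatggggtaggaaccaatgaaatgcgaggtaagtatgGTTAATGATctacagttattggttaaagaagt
Afp: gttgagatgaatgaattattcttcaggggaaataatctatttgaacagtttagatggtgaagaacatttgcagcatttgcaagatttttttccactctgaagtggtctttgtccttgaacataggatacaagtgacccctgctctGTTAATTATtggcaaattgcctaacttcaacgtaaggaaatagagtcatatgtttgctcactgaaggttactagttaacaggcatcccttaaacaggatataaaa
Afm: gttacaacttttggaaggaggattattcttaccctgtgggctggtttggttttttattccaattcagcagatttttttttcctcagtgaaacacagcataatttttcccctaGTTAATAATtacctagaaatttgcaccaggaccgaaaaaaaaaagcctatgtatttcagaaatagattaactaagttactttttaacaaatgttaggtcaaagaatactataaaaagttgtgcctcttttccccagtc
Gc: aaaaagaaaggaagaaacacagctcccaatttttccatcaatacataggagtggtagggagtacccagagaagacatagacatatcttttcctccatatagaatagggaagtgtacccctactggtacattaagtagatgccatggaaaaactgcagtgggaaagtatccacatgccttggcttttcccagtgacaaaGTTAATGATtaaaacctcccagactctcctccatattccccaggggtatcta
The match began 32 bases before the start in Alb, 105 in Afp, 138 in Afm and 52 in Gc, each time on the strand of the gene. On either strand, GTTAATNAT occurred in the same 250-base window of 242 of 32851 RefSeq promoters (0.737%), and in 1 of the 15 listed plasma protein genes that had a window, Fga. The motif was chosen after these sequences had been read, so its presence in all 4 is a description. CCAAT, the core of the CCAAT box, was found on either strand in all 4 windows and in 33.8% of all promoters; in Afp it overlaps the GTTAATNAT match. TATAAA was found in Afp and Afm, and in 12.4% of all promoters. These are matches of letters and not evidence of binding.

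Alb and Gc were highest in liver, and Afm and Afp had values above 0 in liver alone, with a listed 0 in every other column. In liver, Alb was listed at 41279.5, 34726, 30775, 37479, 1112 and 37343 FPKM in the columns numbered 03, 13, 15, 25, 28 and 42. In adipose it was listed at 9.81, 19.2, 18.7, 11.7, 29.8 and 41.8 FPKM in columns 03, 10, 15, 25, 41 and 42, and in hypothalamus at 24.3, 22.4, 40.7, 22.6, 24.1 and 60.3 FPKM in columns 03, 13, 15, 25, 28 and 42. The liver columns did not overlap those of either other tissue, although column 28 lay far below the other 5, while the adipose and hypothalamus columns overlapped.

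Alb alone made up at least 10.2% of all FPKM in 5 liver columns and was the highest named gene in each of them. In liver column 28 it made up 0.386% and ranked 31st. Its liver mean was 30452 ± 14787 FPKM (SD, n = 6), and 36321 ± 3882 FPKM without column 28 (SD, n = 5).

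Gc, which encodes the vitamin D-binding protein, was listed at 2391, 2654, 2208, 2386, 2211 and 1593 FPKM in liver columns 03, 13, 15, 25, 28 and 42. In adipose it was listed at 6.22, 1.19, 1.09, 0.905, 7.60 and 2.90 FPKM in columns 03, 10, 15, 25, 41 and 42, and in hypothalamus at 1.14, 1.15, 2.08, 1.01, 1.12 and 3.23 FPKM in columns 03, 13, 15, 25, 28 and 42. Liver again stood apart from the other tissues, which overlapped. Gc ranked between 9 and 19 among named genes in liver, and unlike Alb it was not low in column 28.

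Afm, the vitamin E carrier, was listed at 52.0, 74.4, 73.0, 92.1, 99.48 and 99.5 FPKM in liver columns 03, 13, 15, 25, 28 and 42, and at 0 in all 6 adipose and all 6 hypothalamus columns. Afp, the fetal member, was listed at 0.116, 0.558, 0.579, 1.60, 0.919 and 1.85 FPKM in the same liver columns, and at 0 in all adipose and hypothalamus columns. A listed 0 can be a failed estimate in these tables, since Eef1a1, a translation factor used by every cell, was listed at 0 in all liver and hypothalamus columns and in 5 of 6 adipose columns. Their levels outside liver are therefore unknown, and no fold change between tissues is given for Afm or Afp.

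**Figure D1:**
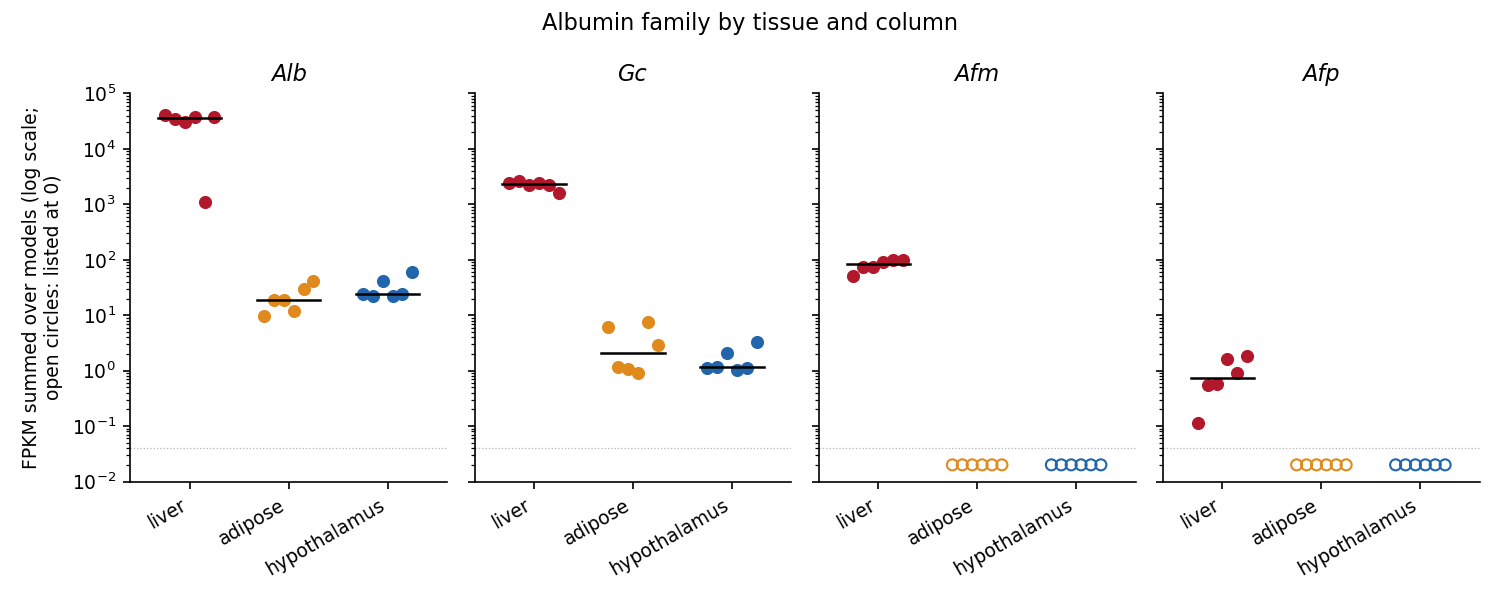
FPKM of each member (log axis) by tissue, 1 point per column; bars are medians over 6 columns and open circles are columns listed at 0, drawn below the dotted line. Alb and Gc are highest in liver, Alb in liver column 28 lies at 1112 FPKM, and Afm and Afp are listed at 0 outside liver.

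The tissues were compared with limma on log2(TPM + 1), where TPM is a gene's share of the FPKM of its column scaled to a sum of 1000000, over 12766 genes with at least 1 FPKM in at least 6 columns. A gene was called at a Benjamini-Hochberg adjusted p below 0.05 and a difference of at least 2-fold. Alb and Gc were called higher in liver than in adipose, as were 9.67% of all genes tested (54.2% were called in either direction). Alb reached 1 FPKM in all 18 columns and Gc in 17. Alb was higher by 9.34 ± 0.71 on the log2 scale (SE; limma, adjusted p = 1.364e-09; n = 6 and 6) and Gc by 9.07 ± 0.42 (adjusted p = 1.367e-12). The median difference of all genes was -0.85. In bulk tissue, fewer cells of a type and less RNA per cell cannot be told apart.

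Against hypothalamus, Alb was higher in liver by 9.06 ± 0.71 (SE; limma, adjusted p = 1.052e-09) and Gc by 9.99 ± 0.42 (adjusted p = 1.113e-13), beside 12.7% of all genes called higher, 71.6% called in either direction and a median of -1.47. By size of the difference, Alb stood 45th and Gc 57th of 12766 against adipose, and 73rd and 19th against hypothalamus. Without liver column 28 the Alb difference was 10.16 against adipose and 9.87 against hypothalamus. Afm passed the filter only through its 6 liver columns, so it had to differ, and the size of its difference is set by its liver level and the added 1. Afp reached 1 FPKM in 2 liver columns and was not tested at this filter.

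Scaling changed how all genes divided into higher and lower calls, but not the direction or the call of Alb and Gc in liver. Liver against adipose gave 1235 genes higher and 5683 lower, against 1630 and 2918 on FPKM as deposited and 1855 and 2821 with columns scaled to a common median. Liver against hypothalamus gave 1627 higher and 7519 lower, against 2324 and 4616 with median scaling. The median of all genes moved to -0.20 and -0.94 on FPKM as deposited in the comparisons with adipose and with hypothalamus, and to -0.12 and -0.44 with median scaling. Alb differed by between 9.06 and 10.10, and Gc by between 9.07 and 10.28, over both comparisons and these scalings.

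Adipose and hypothalamus could not be separated for any member. Alb differed by -0.29 ± 0.71 (SE; limma, adjusted p = 0.7322) and Gc by 0.93 ± 0.42 (adjusted p = 0.0543), where 54.6% of all genes tested were called in either direction and 35.7% were lower in adipose. Gc was called higher in adipose, at 1.10 to 1.15, when adipose column 10, 15 or 25 or hypothalamus column 42 was left out (adjusted p = 0.01874 to 0.02866). Markers of the epididymis, which adjoins the gonadal fat pad, were high in both adipose columns with the highest Gc, and also in column 10, where Gc was 1.19 FPKM. The 5 epididymis markers (Lcn5, Lcn8, Spink8, Crisp1, Gpx5) summed to 2850 FPKM in adipose column 03, 842 in column 10 and 2537 in column 41, and to at most 0.459 in columns 15, 25 and 42, against at most 0.491 in hypothalamus. Without columns 03, 10 and 41, left out for these markers after the values were seen, the Gc difference was 0.35 ± 0.36 (limma, adjusted p = 0.4051). Both adipose columns with the highest Gc are among those left out, so the difference had to shrink. The part of epididymal tissue in the Gc values was not tested.

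**Figure D2:**
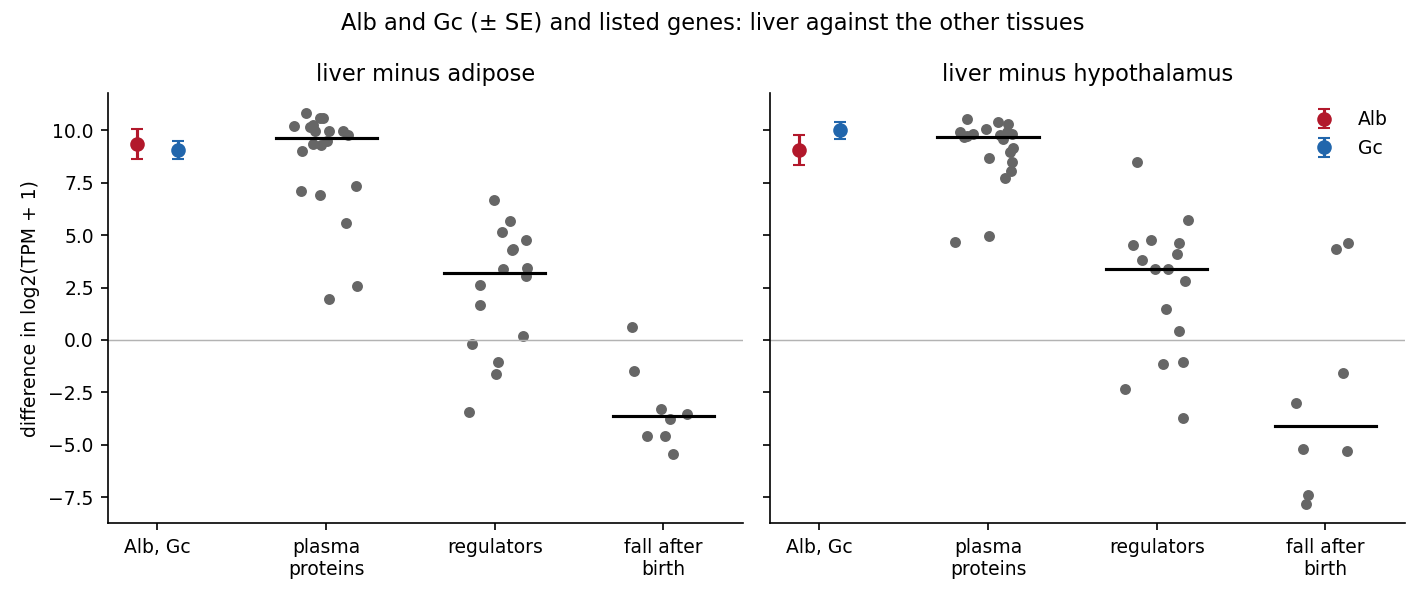
Difference in log2(TPM + 1) of liver minus adipose (left) and liver minus hypothalamus (right) for Alb and Gc (± SE) and for the tested genes of 3 lists (points; bars are list medians). Alb and Gc lie between 9.06 and 9.99 above the other tissues; the lists include genes that passed the filter only with their liver columns and genes below 1 FPKM in every liver column.

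Other secreted plasma proteins of the hepatocyte were set beside the members as a list of 20 genes. All 20 were called higher in liver than in adipose, beside 9.67% of all genes tested, and all 20 were called higher than in hypothalamus, beside 12.7%. Of these, 9 (Apoh, Fetub, Hpx, Ambp, Serpinc1, Kng1, Itih4, Plg and F2) reached 1 FPKM in fewer than 6 columns outside liver, so they passed the filter only with their liver columns and had to be higher. The other 11 were also called higher in both comparisons. The median difference over the 20 was 9.63 against adipose and 9.69 against hypothalamus, against -0.85 and -1.47 over all genes, and takes in those 9 genes. In liver the list was led by Ahsg (fetuin-A) and Trf (the iron carrier transferrin), and Serpinc1 (antithrombin) and Fetub (fetuin-B) were its lowest genes at a mean of 224 and 272 FPKM. Between adipose and hypothalamus 15 of the 20 were not called, 4 were higher in adipose and Vtn (vitronectin) was lower. Of all genes tested, 18.9% were called higher in adipose and 35.7% lower.

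Outside liver, Alb and Gc were set against the same 20 genes as a percent of each gene's median liver level in TPM. Alb stood at 0.0398%, 0.0890%, 0.0842%, 0.0583%, 0.126% and 0.217% of its liver level in adipose columns 03, 10, 15, 25, 41 and 42. The median of the 20 genes in those columns was 0.0553%, 0.104%, 0.0764%, 0.0516%, 0.138% and 0.205%. Alb lay between the quartiles of the list in each adipose column, and both were highest in column 42.

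In hypothalamus columns 03, 13, 15, 25, 28 and 42, Alb stood at 0.0885%, 0.0830%, 0.148%, 0.0779%, 0.0863% and 0.218% of its liver level. The list median there was 0.0659%, 0.0701%, 0.113%, 0.0686%, 0.0756% and 0.192%, and Gc stood at 0.0618%, 0.0633%, 0.113%, 0.0521%, 0.0598% and 0.174%. Alb again lay between the quartiles of the list in each column. All 3 were highest in column 42, which was also the highest hypothalamus column for 16 of the 20 list genes. Gc left the list median in adipose columns 03 and 41, at 0.377% and 0.480%.

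Of the 20 plasma protein genes, 12 were above 0 in all 6 adipose columns and 13 in all 6 hypothalamus columns, while Fetub was listed at 0 in all 12 and Serpinc1 in all adipose columns. Their summed level was 33972 to 40951 FPKM in liver, 546 to 906 in adipose and 148 to 789 in hypothalamus. The hypothalamus maximum was that of column 03, where Ttr (transthyretin), also a gene of the choroid plexus, was listed at 646 FPKM, against 2.17 to 9.08 in the other 5; without that column the highest sum was 209.7 FPKM. Trf, Hp and Rbp4 had a median above 1% of liver in adipose, and Trf and Vtn in hypothalamus. What part carried-over liver RNA has in the low Alb and Gc values was not tested. At the percent that Alb held, Afm would stand at 0.0331 to 0.181 FPKM outside liver, where it was listed at 0. Whether so low a level would be listed above 0 was not tested.

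**Figure D3:**
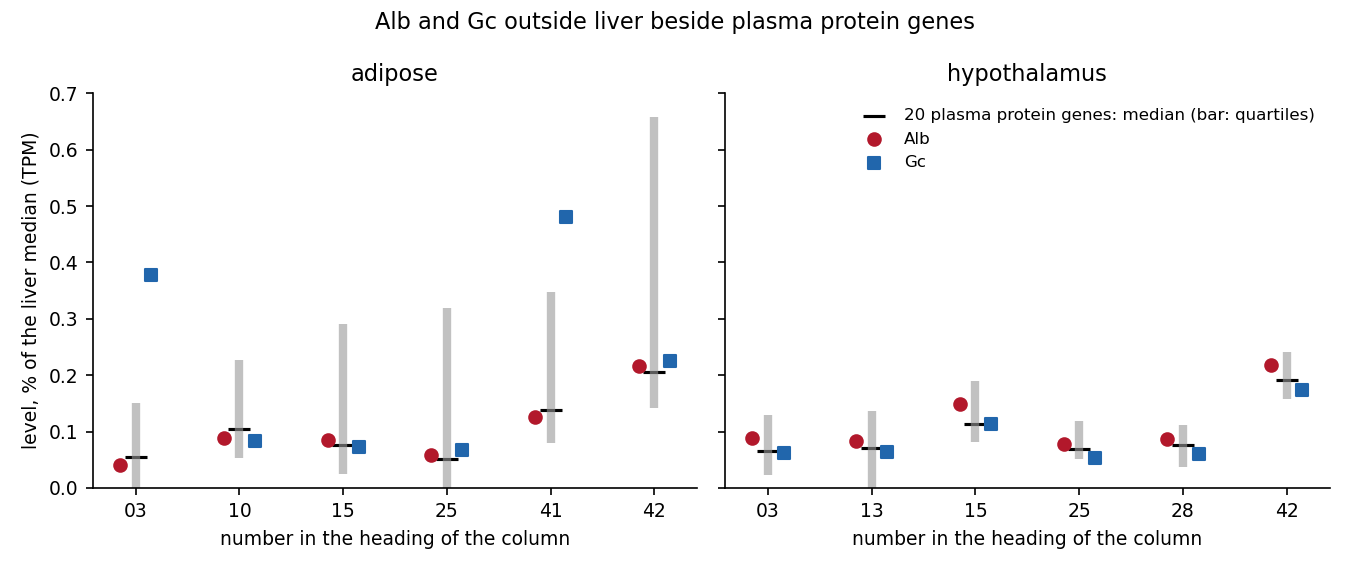
Level of Alb (circles) and Gc (squares) in each adipose and hypothalamus column as a percent of its own liver median (TPM), with the median and quartiles of 20 plasma protein genes. Alb follows the list median, up to 0.217% in adipose and 0.218% in hypothalamus; Gc stands above the upper quartile in adipose columns 03 and 41.

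The members were then compared within each tissue. FPKM is scaled by transcript length, so levels of different genes can be set side by side, and pairs were tested with an exact two-sided sign-flip test of log2((FPKM + 1)/(FPKM + 1)), adjusted over 18 tests (6 pairs in 3 tissues). With 6 columns the smallest p that this test allows is 0.03125. In liver the order was Alb, Gc, Afm and Afp in 5 of 6 columns, and in column 28 Gc was above Alb.

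The fetal member was far below albumin in liver at 3 weeks. Alb exceeded Afp by 356285-fold, 62274-fold, 53107-fold, 23382-fold, 1209-fold and 20132-fold in liver columns 03, 13, 15, 25, 28 and 42. The value of column 13 rests wholly on an Afp model of the opposite strand; without that model Afp was listed at 0 there and no fold can be given. On the log2(FPKM + 1) scale, which understates a ratio to so low a gene, Alb was higher by 13.42 ± 2.15 (SD, n = 6; exact p = 0.03125, adjusted 0.0375), and by 14.27 ± 0.59 without column 28. Afp ranked between 7261 and 10324 among named genes, and the fold moves strongly with small changes of so low a value.

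Gc exceeded Afp by 859-fold to 20635-fold and Afm exceeded Afp by 53.6-fold to 449-fold, in 6 of 6 liver columns each (exact p = 0.03125, adjusted 0.0375). Alb exceeded Gc by 13.1-fold to 23.4-fold in 5 columns and stood at 0.503-fold of Gc in column 28, and this pair did not pass (mean log2 ratio 3.19 ± 2.07, SD, n = 6; exact p = 0.0625, adjusted 0.0703). Gc was above Afm in all 6 columns (4.78 ± 0.53; exact p = 0.03125, adjusted 0.0375).

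In adipose and hypothalamus Alb was above Gc in 6 of 6 columns, by 2.51 ± 1.11 in adipose and 3.63 ± 0.15 in hypothalamus (SD, n = 6 each; exact p = 0.03125, adjusted 0.0375 in both). Alb was also above Afp in every column, but Afp was listed at 0, so the value is set by Alb and the added 1. On that scale it was 4.35 ± 0.75 in adipose and 4.96 ± 0.57 in hypothalamus. The planned comparison of this value between tissues (9.07 higher in liver than in adipose, 8.47 higher than in hypothalamus) therefore carries no information on Afp outside liver, and its test is not used.

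Each member except Gc had several transcript models in liver. Alb had 11, of which 6 lay on the opposite strand and 8 ran over another gene; Afp had 4, Afm 2 and Gc 1, and in adipose and hypothalamus every member had 1. In liver columns 13, 15 and 42 nearly all Alb signal sat on the model beginning just inside the RefSeq start (the RefSeq-start model), at 34726, 30775 and 37342 FPKM. In column 03 that model held 17799 FPKM (43.1%), and 23481 FPKM sat on models that began about 13 kb upstream (13054 and 13080 bp). In column 25 it held 21091 FPKM, and 16362 FPKM sat on models that ran over the upstream gene Gm35999. The total was alike in these 5 columns while its division among model starts was not.

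In liver column 28 the RefSeq-start model held 293 FPKM, the upstream-start models 796 and the opposite-strand models 22.4, so no kind of model held the amount seen elsewhere. In the deposited gene table, Alb was likewise at 1008 FPKM in that column and at 27348 to 37804 FPKM in the others. Other abundant genes were low in a single liver column too, and not the same one: Apoa2, an HDL apolipoprotein, stood at 4.01 FPKM in column 13 and at 3617 to 5614 in the others, and Ahsg at 257 in column 25 and 4969 to 8802 in the others. Among 34 genes with a liver mean of at least 1000 FPKM, 4 (11.8%; Ahsg, Alb, Apoa2 and Sepp1) had a lowest column more than 10 times below the median of the others, against 73 of 2728 genes (2.68%) with a mean of at least 10 FPKM. Whether the albumin value of column 28 comes from the animal or from the estimate was not tested.

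**Figure D4:**
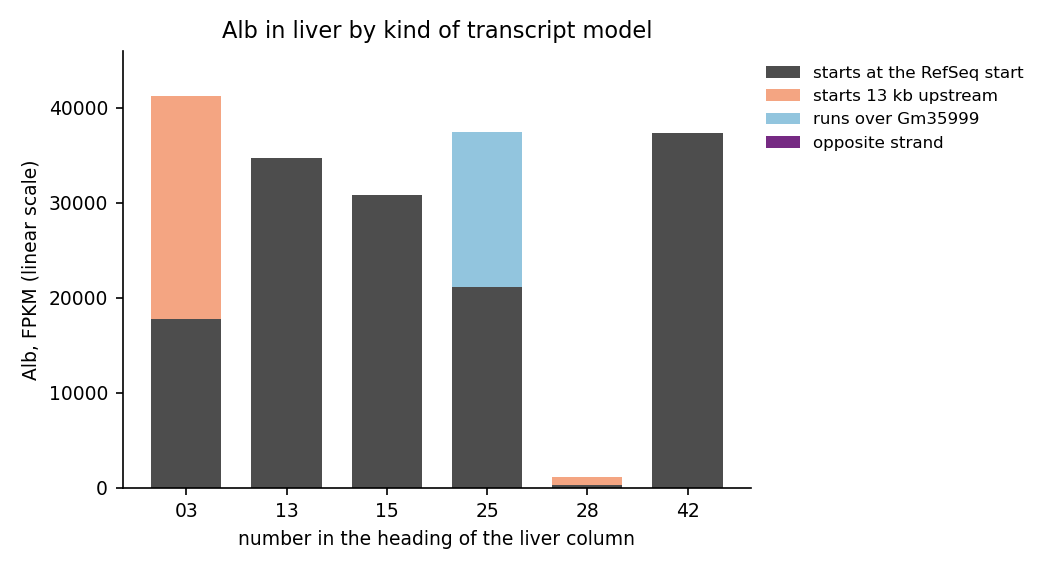
FPKM of Alb in the 6 liver columns (linear axis), stacked by the kind of transcript model it was assigned to. The RefSeq-start model carries all but a trace in columns 13, 15 and 42 and 43.1% in column 03; column 28 totals 1112 FPKM; the opposite-strand models (at most 22.4 FPKM) are too small to see.

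The low Afp signal was also spread over models. The RefSeq-start model held 0.0600, 0, 0.579, 1.46, 0.278 and 0.571 FPKM in liver columns 03, 13, 15, 25, 28 and 42. Models beginning 4769 or 11909 bp upstream added up to 0.880 FPKM, in column 42. In column 13 all 0.558 FPKM sat on a model of the opposite strand, and without that model Afp was listed at 0 there. Strandedness of the libraries is not given in the sources used here, so antisense and sense reads may not be separable. For Afm, a model that ran on over Gm2602 and Albfm1 held 28.2, 0.335, 0, 0, 47.7 and 20.3 FPKM in columns 03, 13, 15, 25, 28 and 42, and without it Afm stood at 23.8 to 92.1 FPKM.

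The members varied among the liver columns to unlike degrees. The SD of log2(TPM + 1) was 2.01 for Alb, 0.88 for Afp, 0.40 for Afm and 0.24 for Gc, beside a median of 0.26 over 8323 genes. Without column 28 it was 0.15 for Alb, smaller than in all but 16.2% of genes. Afp was the member that varied most in the other columns, at 0.97, more than 94.5% of genes, at a level near 1 FPKM.

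Across the 6 liver columns, 6 pairs of members were correlated on log2(TPM + 1). Afm and Afp were lowest in column 03 and high in 25, 28 and 42, with r = 0.92 (exact permutation p = 0.0125, adjusted 0.075) and rho = 0.83 (p = 0.0583, adjusted 0.35), and r = 0.99 over the 4 columns left without 03 and 28. The pair did not pass the adjustment, and 204 of 8457 other liver genes (2.41%) had an r with Afp at least as high. The other 5 pairs had r between -0.51 and -0.13, with adjusted p of 0.668 to 0.872, and 4 of these changed sign when the 2 columns farthest from the median were left out.

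A list of 12 genes, most of them known to fall in mouse liver after birth together with Afp, was set beside it. H19, an imprinted noncoding RNA, was listed at 2.31, 4.37, 5.32, 103, 33.5 and 66.0 FPKM in liver columns 03, 13, 15, 25, 28 and 42. Gpc3, a cell-surface proteoglycan, was listed at 1.18, 1.29, 3.00, 5.06, 5.14 and 5.76 FPKM, and Mest, an imprinted hydrolase, at 0.133, 0, 0, 1.42, 0.834 and 1.93 FPKM. Peg3, an imprinted zinc-finger gene, was listed at 1.49, 0.774, 3.88, 5.02, 3.11 and 4.55 FPKM, and Lpl (lipoprotein lipase) at 26.8, 36.7, 19.2, 56.3, 23.8 and 29.0 FPKM. H19, Gpc3, Mest and Afp were each higher in columns 25, 28 and 42 than in the other 3, whereas Peg3 was higher in column 15 than in column 28, and Lpl was higher in column 13 than in columns 28 and 42. Columns 25, 28 and 42 also listed fewer named genes at 0 (51.9% to 52.4%) than columns 03, 13 and 15 (54.9% to 56.4%), and the part of this in the values of these low genes was not tested.

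The rest of that list was mostly near or at 0 in liver. Igf2, a fetal growth factor, was above 0 in 1 liver column at 0.222 FPKM, and Dlk1, Igf2bp1, Lin28b and Hbb-bh1 were listed at 0 in all. Plagl1, an imprinted zinc-finger factor, reached 0.392 FPKM in 1 column. Among the list genes not tested, Igf2bp3 stood at 0.103 to 0.411 FPKM in liver alone, and Lin28b at 0.294 to 0.820 FPKM in hypothalamus alone. Of 8 list genes tested, 7 were lower in liver than in adipose and none higher, while 44.5% of all genes tested were lower. The list median was -3.64, against -0.85 over all genes. Igf2, Dlk1 and Plagl1, below 1 FPKM in every liver column, passed the filter only through other tissues. Igf2 and Plagl1 were above 1 FPKM in every adipose and every hypothalamus column, so either tissue alone would have passed them. The filter therefore selected for a lower liver value in at least 1 comparison, but did not fix which. Dlk1 stood at 0.160 to 0.826 FPKM in adipose and passed through hypothalamus alone, so it had to be lower only against hypothalamus. Its call against adipose was lost with either other scaling. Against hypothalamus 6 were lower, as were 58.9% of all genes, and 2, H19 and Lpl, were higher (median -4.09 against -1.47). Gpc3 lost that call with median scaling.

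**Figure D5:**
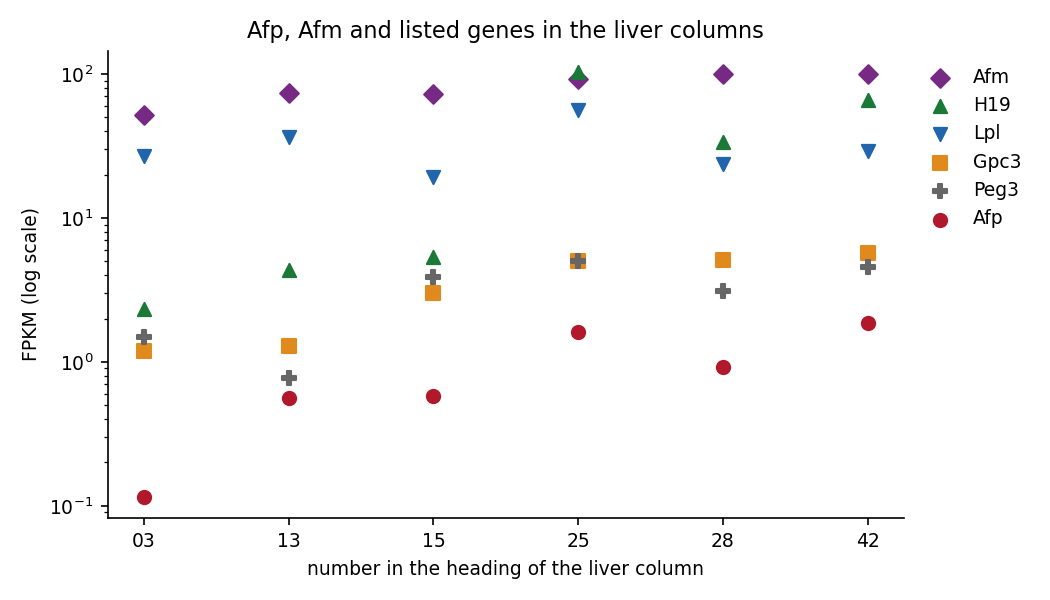
FPKM (log axis) of Afp, Afm and 4 listed genes (H19, Lpl, Gpc3 and Peg3) in each liver column, 1 point per column. Afp runs between 0.116 and 1.85 FPKM; Afp, H19 and Gpc3 are higher in columns 25, 28 and 42 than in the other 3, while Lpl and Peg3 do not follow that order.

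Regulators known to act on Alb or Afp formed a list of 16. Against adipose 11 were higher in liver, 3 lower and 2 not called, beside 9.67% of all genes tested called higher and 44.5% called lower (median 3.22, against -0.85 over all genes). Against hypothalamus the counts were also 11, 3 and 2, beside 12.7% and 58.9% (median 3.39, against -1.47). Of the 11 higher in each comparison, 9 passed the filter only with their liver columns and had to be higher. The lower calls depended on scaling: of the 3, 1 remained against adipose with either other scaling, and 2 or 1 against hypothalamus. Those that remained were of Zfhx3 or Esrrg, which were below 1 FPKM in every liver column. Both passed the filter only through other tissues, so the filter itself selected for a lower call. Hnf4a, a nuclear receptor that drives many hepatocyte genes, stood at 73.6 to 137 FPKM in liver, at most 6.11 in adipose and 0 in every hypothalamus column.

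Cebpa, a leucine-zipper factor of liver and fat, was lower in liver than in adipose by -1.05 ± 0.23 (limma, adjusted p = 0.000523), at 59.8 to 88.4 FPKM in liver against 44.8 to 143 FPKM in adipose, and was not called on FPKM as deposited (-0.38) or with median scaling (-0.24). Zhx2 and Zfhx3, repressors of Afp in mouse liver, were among the lower genes by share of the column. Zhx2 stood at 1.26 to 2.12 FPKM in liver, 2.66 to 4.38 in adipose and 2.99 to 3.62 in hypothalamus, and its differences of -1.62 and -1.13 lost their calls with both other scalings. Zfhx3 was listed at 0 in all liver columns, so it passed the filter only through other tissues. It kept its call against adipose, but not against hypothalamus with median scaling. A listed 0 can be a failed estimate in these tables, so the level of Zfhx3 in liver is unknown. Esrrg, an orphan receptor, was the other regulator near 0 in liver, at most 0.675 FPKM.

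Handling of the family's proteins and cargo was covered by further lists. For uptake and recycling, 6 of 9 genes were tested; 5 were lower in liver than in adipose, beside 44.5% of all genes tested (median -2.33, against -0.85). Against hypothalamus 2 were higher and 4 lower, beside 12.7% and 58.9% of all genes, and the median of -1.32 lay near the -1.47 of all genes. With the other scalings 3 were lower and B2m was higher than in adipose, and 2 or 1 were lower than in hypothalamus. The 2 genes higher than in hypothalamus, Fcgrt and B2m, encode the neonatal Fc receptor that rescues albumin from breakdown. They stood at 49.6 to 60.0 and 313 to 1043 FPKM in liver against 5.50 to 8.22 and 35.6 to 64.4 FPKM in hypothalamus. In adipose they stood at 73.0 to 121 and 298 to 447 FPKM. Fcgrt was among the 5 genes called lower in liver than in adipose, by -1.36 ± 0.12 (SE, limma, adjusted p = 8.644e-09). That call was lost with both other scalings. Cubn, Lrp2 and Amn, the endocytic receptor genes of kidney and yolk sac, were listed at 0 in every liver column. Outside liver, Lrp2 reached 14.7 FPKM in adipose, with 2 columns at 0, and Cubn at most 0.398 FPKM in hypothalamus. Sparc, the other of the list's most abundant liver genes, was lower in liver than in both tissues.

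For vitamin D, the cargo of Gc, 3 of 4 tested genes were higher in liver than in adipose, beside 9.67% of all genes tested, and 4 of 4 than in hypothalamus, beside 12.7%. Of these, Cyp2r1 passed the filter only with its liver columns and had to be higher. Cyp27a1 and Cyp2r1, which hydroxylate vitamin D at carbon 25, stood at 113 to 129 and 3.07 to 5.05 FPKM in liver, and Cyp3a11, an oxidase of many drugs and sterols, at 1658 to 3050 FPKM. Vdr (the vitamin D receptor), Cyp27b1 and Cyp24a1 were each listed at 0 in all 18 columns. For vitamin E, the cargo of Afm, Ttpa (the tocopherol transfer protein) and Sec14l2 were higher in liver than in adipose, by 7.91 ± 0.41 and 6.78 ± 0.48 (SE; limma, adjusted p = 7.654e-12 and 4.626e-10), and so were both than in hypothalamus. Pltp, a lipid transfer protein, was lower in liver than in both tissues, as were 44.5% of all genes against adipose and 58.9% against hypothalamus. Scarb1, a lipoprotein receptor, was higher than in hypothalamus and not called against adipose, except with median scaling. Of these 4 genes, 2 were higher against adipose and 3 against hypothalamus, beside 9.67% and 12.7% of all genes tested.

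For each member the 5 genes with the most similar course over the 6 liver columns were listed, among genes with a liver mean of at least 1 FPKM. The list is a description, since all genes of a column share its library and depth. For Alb they included Klhdc3, Gpld1, Dpagt1 and 4933434E20Rik (r of 0.988 to 0.998), which are all lowest in column 28; without that column r was between -0.61 and 0.63. For Gc they were Ttc33, Rpl18, Slc25a3, Ttc36 and Myg1 (0.987 to 0.998), all lowest in column 42, as Gc was. For Afm they were Mrps11, Ybx1, Vps39, Taf7 and Aqp9 (0.991 to 0.996), and for Afp P2rx4, Ccbl2, Fabp4, Sqle and Bid (0.987 to 0.991). All 10 were lowest in column 03, and no gene appeared for more than 1 member.

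The tissue labels were checked against marker lists. Summed markers of adipocytes were 6811 to 12414 FPKM in adipose and at most 13.2 in the other tissues, and those of hypothalamic neurons were 1217 to 1522 FPKM in hypothalamus and at most 72.7 elsewhere. Hepatocyte markers, Alb included, summed to 21385 to 62032 FPKM in liver, 1023 to 2137 in adipose and 40.2 to 684 in hypothalamus. In adipose Cyp2e1 and Pck1, which fat also expresses, made up most of that sum, and in hypothalamus the maximum was set by Ttr in column 03. Without these 3 genes, left out after their values were seen, the sums were 12764 to 54137 FPKM in liver, 16.3 to 60.7 in adipose and 30.7 to 89.0 in hypothalamus. Column sums of FPKM were 288191 to 329290 in liver, 169666 to 217234 in adipose and 238309 to 256127 in hypothalamus. The number of sequenced fragments per sample is unknown from these tables, so no counting interval can be given for any value.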

How the data were processed

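Per the labels' protocols, polyadenylated RNA of liver, gonadal adipose and hypothalamus was sequenced as 18 libraries. The submitters' processing notes name HISAT 0.1.6, StringTie 1.0.4 and build mm10. The authors deposited FPKM values in 6 tables, a transcript and a gene table per tissue, with 6 columns each. The tables may have been normalized separately per tissue, which is why shares of a column (TPM) were tested. Non-numeric cells (13 in adipose, 9 in hypothalamus, 9 in liver) were taken as missing.

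FPKM were summed over all models of a gene name. Limma 3.58.1 in R 4.3.3 (trend, robust) was fitted on log2(TPM + 1) over 18 columns and tested on simulated data. Exact permutation tests went through every arrangement, and SciPy 1.17.1 gave the correlation coefficients. Columns were grouped by tissue, because their numbers match no label. Labels do not say whether replicates come from separate animals, so p-values measure the spread between these samples. Fold changes on the log2(value + 1) scale understate those of low genes. Depth is unknown. Alternatives were scaling, pseudocount 0.1, no filter, the gene tables, other sets of models, a replicate block and leaving out each column. Promoters were read from RefSeq. Named genes were the members, the 5 most alike per member, and from each list the 2 highest and 2 lowest in liver, with others where needed. Members and lists were chosen with earlier results of these data known. Protein sequences were not used here. Some genes that the rule names are not reported here.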

Additional observations from a re-analysis of the deposited data

Results flagged for a closer look

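In liver, Alb in column 28 was listed at 1111.6 FPKM, against 30775 to 41279.5 FPKM in the other 5 columns, and its gap to the nearest of them exceeded Dixon's 95% critical value for 6 samples. The log2 ratio of Alb to Afp in that column, 9.18 against 13.68 to 15.18 in the others, passed the same criterion for the same reason. There were 2 flags among 11 groups with any spread, and chance flags about 1 group in 20; the Alb level and the ratio are not independent. The gene table showed the same low value.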

How the results depend on the processing

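Alb and Gc kept their direction and their call in liver against both other tissues under every alternative run. The count of genes called in liver against adipose was 4548 on FPKM as deposited, against 6918 by share of the column; the cause was not tested. Leaving out 1 column at a time, the Alb to Afp log2 ratio ranged from 13.07 to 14.27 in liver, 4.14 to 4.53 in adipose and 4.76 to 5.04 in hypothalamus, and no pair of members could pass with 5 columns, where the smallest exact p is 0.0625. Outside liver Afp is listed at 0, so that value reflects Alb alone there, and its changes under the alternatives say nothing of Afp in adipose or hypothalamus. Its difference between tissues ranged from 8.72 to 9.92 (liver against adipose), 8.11 to 9.31 (liver against hypothalamus) and -0.82 to -0.41 (adipose against hypothalamus); 9.92 and 9.31 are the values without liver column 28. With heading numbers as a replicate block it was 10.02 over 4 pairs (exact sign-flip p = 0.125, the smallest possible) and 8.47 over 6 pairs (exact p = 0.03125, adjusted 0.09375). Same-numbered columns did not deviate together (r of -0.017 to 0.044 over 14 pairs, 5 of them best with their own number). Tissues of the same animal need not deviate alike, so whether same-numbered columns share an animal remains unknown. The block changed no member's call in the tissue comparisons. Without a filter, Afp was called higher in liver than in adipose and hypothalamus, a call that rests on values listed at 0. The alternative models, pseudocount and gene tables changed no call of a member. An unknown depth limits what can be said of Afp, whose liver values lie near or below 1 FPKM.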
